A study of Mus musculus with 10 samples.

Results

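The genes described here are the oxidative phosphorylation genes, the nuclear and mitochondrial genes whose proteins and RNAs make the respiratory chain and the ATP synthase. They were taken by symbol: names starting with Nduf, Uqcr, Atp5 or mt-, the succinate dehydrogenase genes Sdha to Sdhd, and Cox followed by a digit from 4 to 8. Symbols marking pseudogenes were dropped, which removed 1 gene, Atp5l-ps1. The rule gave 128 of the 28808 gene symbols in the 10 expression tables, and 126 of the 128 were in all 10. Of these, 91 lie in the nuclear genome: 36 subunits of complex I, 7 complex I assembly factors (Ndufaf), 4 genes of complex II, 8 of complex III, 19 of complex IV and 17 of complex V. The other 37 carry the prefix mt- and lie on the mitochondrial genome: 13 mRNAs, 2 ribosomal RNAs (rRNAs) and 22 transfer RNAs (tRNAs). Ndufa4 and Ndufa4l2 were counted with complex IV, to which the Ndufa4 protein is now assigned. Complexes were otherwise assigned by symbol. The genes of complex V thus include Atp5sl, which the GENCODE M21 annotation names Dmac2 and not as an ATP synthase gene.

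The study profiled single cells of mouse kidney cortex by Drop-seq, which captures polyadenylated RNA from each cell in a droplet and reads its 3′ end with a molecular tag (UMI) that marks each captured molecule. There was 1 library of normal kidney, called the control, 1 library each from days 1, 2 and 4 after injury, and 2 libraries each from days 7, 11 and 14. All mice were 4 weeks old. The kind of injury, the strain, the sex and which libraries came from separate animals are not given in the sources used here. The p-values therefore measure the spread between libraries of one day, and the control, with 1 library, was assumed to vary like the replicated days, which left 3 residual degrees of freedom.

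Complexes I to IV pass electrons from NADH and succinate to oxygen. Complexes I, III and IV pump protons across the inner mitochondrial membrane, and complex V, the ATP synthase, uses the proton gradient to make ATP. Complex II is coded by nuclear genes alone, whereas the other complexes join nuclear subunits with subunits translated inside the mitochondrion from mRNAs that are cut, together with the rRNAs and tRNAs, from long transcripts of the mitochondrial genome. Kidney tubule cells, above all those of the proximal tubule, the thick ascending limb and the distal tubule, are rich in mitochondria because they power the uptake of salt and other solutes.

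Together the 10 tables held 173806985 UMIs on 64803 cell barcodes, and single libraries ranged from 7091848 to 31632205 UMIs. Of these barcodes, 50378 were used after filtering, with a median of 1252.5 to 2662 UMIs per cell. The control had 611 barcodes with over 50% of UMIs from mt- genes, against 17, 28 and 3 on days 1, 2 and 4, 0 and 2 at day 7, 206 and 40 at day 11, and 265 and 261 at day 14. These barcodes were left out. The 2 day-11 libraries stood apart by 5362 and 5424 barcodes with under 500 genes or UMIs, which were left out, and the other libraries had none. In all, 99 barcode sequences were in 2 or more libraries, 58 of them among the cells used. In each library the 5% of cells with the highest doublet score were left out. Cells fell into 39 clusters, which were named by marker genes, so that "proximal-like" and similar names are rebuilt here. Tubular cells below are the proximal-, thick limb-, distal- and collecting duct principal-like cells and the tubular clusters that could not be given 1 segment. Some of the latter carried markers of more than 1 segment, such as cluster 9, with 7 markers of principal and 7 of intercalated collecting duct cells. Cells of unnamed clusters, which enter no class, were 924 (27.2%) on day 1 and 888 (22.8%) on day 2, against 1.30% to 2.77% in the other libraries. Some of these clusters, nearly all from 1 library, carried tubular and injured-tubule markers, so the tubular values of days 1 and 2 leave out a part of those libraries that may be tubular. Among tubular cells, 7 markers of injured tubule (such as Havcr1 and Lcn2) summed to 943 CPM (for marker sums, UMIs per 1000000 UMIs of the class sum, with no further scaling) in the control, where Krt20 was at 0, against 21848 and 21579.9 on day 7 and 2207 and 1682 on day 11.

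Promoters of nuclear members are shown first, and whether a motif goes with a gene's change was not tested. For 76 of the 91 nuclear members the RefSeq table (GRCm38.p6) held the 250 bases before and 50 bases after the gene's start. They were searched on both strands for 4 short motifs: GCGCATGCG, bound by nuclear respiratory factor 1, CCGGAAGT, bound by ETS factors such as the nuclear respiratory factor GABP, AAGATGGCG, bound by YY1, and TCAAGGTCA, bound by the estrogen-related receptors. The NRF1 motif was in 10 of the 76 (13.2%), against 1.81% of all 27025 promoters of the same length; the ETS motif in 5 (6.58%) against 4.0%; the YY1 motif in 7 (9.21%) against 1.49%; and the ERR motif in 2 (2.63%) against 0.407%. Any of the 4 was in 23 of the 76 (30.3%), against 7.36% of all promoters. A match describes the letters only, and these data do not measure binding. The promoters compared were not matched for base composition or expression. For each motif the matching member with the highest mean level in tubular cells is printed, on its minus strand from 5′ to 3′, with the motif in capitals: Cox6a1 at chr5:115348909-115349208 (NRF1), Cox8a at chr19:7217567-7217866 (ETS, on the other strand, at 2 places), Atp5j2 at chr5:145191492-145191791 (YY1, after the start) and Atp5g3 at chr2:73911277-73911576 (ERR, on the other strand). In Cox6a1 the motif reads on both strands, so the 2 matches overlap in the capital letters.
Cox6a1: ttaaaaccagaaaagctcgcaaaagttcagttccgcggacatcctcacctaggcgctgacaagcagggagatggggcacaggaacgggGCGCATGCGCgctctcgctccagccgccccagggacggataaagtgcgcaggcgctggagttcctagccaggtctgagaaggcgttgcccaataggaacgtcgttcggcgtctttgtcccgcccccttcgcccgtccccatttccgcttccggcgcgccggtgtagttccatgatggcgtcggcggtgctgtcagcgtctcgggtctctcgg
Cox8a: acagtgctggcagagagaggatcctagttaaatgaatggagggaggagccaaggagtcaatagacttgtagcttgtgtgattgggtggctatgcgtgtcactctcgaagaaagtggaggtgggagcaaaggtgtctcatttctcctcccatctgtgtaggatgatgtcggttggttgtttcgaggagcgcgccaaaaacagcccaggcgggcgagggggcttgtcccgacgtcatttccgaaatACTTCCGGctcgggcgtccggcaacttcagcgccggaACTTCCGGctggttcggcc
Atp5j2: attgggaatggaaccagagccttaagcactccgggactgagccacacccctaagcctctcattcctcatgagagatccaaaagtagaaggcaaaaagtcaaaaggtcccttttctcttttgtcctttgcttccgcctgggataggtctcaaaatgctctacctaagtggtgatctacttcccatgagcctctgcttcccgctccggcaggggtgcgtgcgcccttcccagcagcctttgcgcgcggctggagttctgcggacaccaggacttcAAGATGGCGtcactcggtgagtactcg
Atp5g3: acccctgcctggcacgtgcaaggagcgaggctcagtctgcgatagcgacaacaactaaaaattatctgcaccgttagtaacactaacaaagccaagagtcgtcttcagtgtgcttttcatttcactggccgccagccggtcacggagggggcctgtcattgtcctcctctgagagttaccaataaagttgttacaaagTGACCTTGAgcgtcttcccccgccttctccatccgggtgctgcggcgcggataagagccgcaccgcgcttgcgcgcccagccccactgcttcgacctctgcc

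From the mitochondrial genome (GRCm38, plus strand) 3 stretches are shown, because the rRNAs and the tRNA between them had the lowest values of all mt- RNAs on day 7 relative to the control: the valine tRNA mt-Tv (chrM:1025-1093), which lies directly between the 2 rRNAs, and the longest run of A, in capitals, in the small rRNA mt-Rnr1 (chrM:695-724) and in the large rRNA mt-Rnr2 (chrM:1478-1507). As background, the capture beads carry runs of T. Such runs are not particular to the rRNAs. The longest run of A was 7 bases in mt-Rnr2 and 5 in mt-Rnr1, against 8 in the mRNA mt-Nd2 and 7 in mt-Co1, mt-Nd4 and mt-Nd5. Where on these transcripts the captured molecules began was not tested.
mt-Tv: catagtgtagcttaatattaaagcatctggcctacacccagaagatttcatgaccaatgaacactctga
mt-Rnr1: agcaaaccctAAAAAggtattaaagtaagc
mt-Rnr2: taaacttgctAAAAAAAcaacaaaatcaaa

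In tubular cells the nuclear members made 6.87% of the UMIs outside mt- genes in the control, 4.07%, 5.16% and 4.95% on days 1, 2 and 4, 3.86% and 4.21% at day 7, 8.27% and 8.26% at day 11, and 7.36% and 7.19% at day 14. The share was lowest on days 1 and 7, and both day-11 libraries lay above the control. The 13 mt- mRNAs took another course: they made 5.53% of all UMIs in the control, 6.32%, 5.88% and 4.47% on days 1, 2 and 4, 3.28% and 3.76% at day 7, 5.98% and 7.32% at day 11, and 7.61% and 8.37% at day 14. As a plain share of UMIs the mt- mRNAs thus lay above the control on days 1 and 2, but on the scaled CPM used for the tests mt-Co1 was at 11284 in the control and 8929.5 on day 1, mt-Nd1 at 7681 and 7229.8, and mt-Nd2 at 5387 and 6453, so the direction on day 1 depends on the scaling and the gene. The ratio of the 2 kinds of RNA does not: 179.6 mt- mRNA UMIs stood beside every 100 nuclear-member UMIs on day 1, against 106 in the control. That ratio was 128 and 97.2 on days 2 and 4, 89.1 and 94.9 at day 7, 86.7 and 101.5 at day 11, and 127 and 146 at day 14. The mt- rRNAs differed most, from 18.6% of all UMIs in the control to 7.06%, 5.34% and 2.59% on days 1, 2 and 4 and to 1.34% and 2.15% on day 7, followed by 10.6% and 5.35% at day 11 and 10.7% and 11.8% at day 14. The 2 day-11 libraries differed in the rRNA share by far more than in the other measures.

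**Figure D1:**
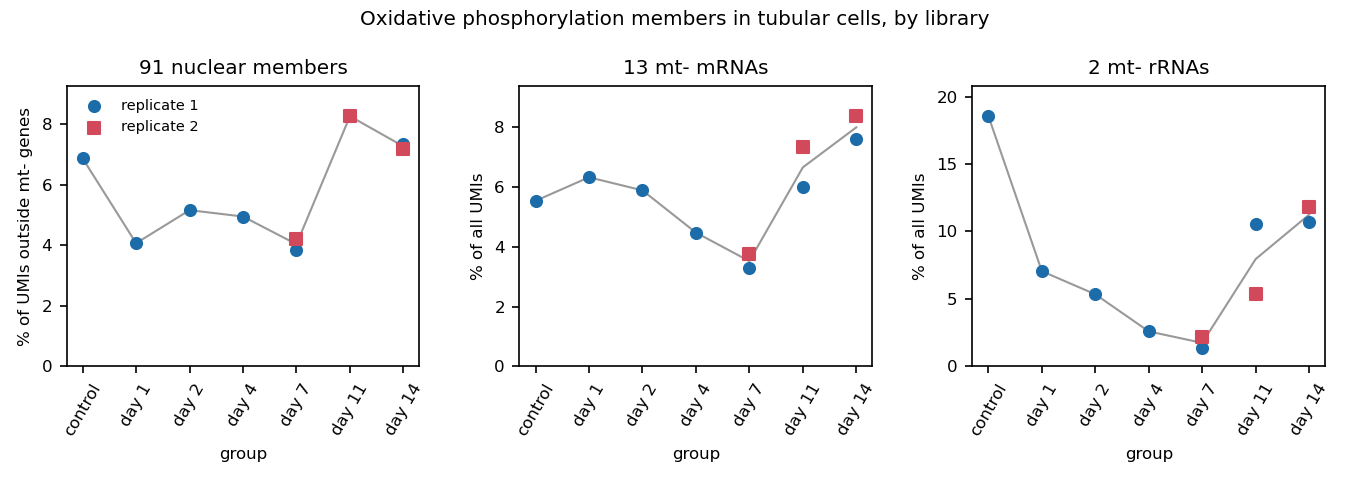
Share of UMIs (percent) in tubular cells by group, with 1 point per library and the line through the group means: nuclear members of UMIs outside mt- genes (left), mt- mRNAs (middle) and mt- rRNAs (right) of all UMIs. The nuclear share runs from 6.87% in the control to 3.86% and 4.21% on day 7 and 8.27% and 8.26% on day 11, and the rRNA share from 18.6% to 1.34% and 2.15% on day 7.

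Counts were summed per library and class and tested with the quasi-likelihood test of edgeR, p-values were adjusted over all genes by the Benjamini-Hochberg method, and a gene was called at an adjusted p under 0.05. Levels of single genes in tested classes are in CPM over library sizes scaled by the TMM method, so they differ from plain shares of UMIs, and because only the 3′ end is read they do not depend on transcript length. On day 7, 81 of the 89 nuclear members tested in tubular cells were lower than in the control and none was higher. Of all 15966 genes tested 35% changed, 2922 of them lower. The median log2 change was -1.20 over the 89, against 0.04 over all genes, and all 89 estimates were below 0. Cox4i2 and Cox7b2 had too few UMIs to be tested. By complex, 35 of 36 subunits of complex I, 4 of 7 complex I assembly factors, 4 of 4 genes of complex II, 8 of 8 of complex III, 13 of 17 of complex IV and 17 of 17 of complex V fell. These counts rest on the sum over all tubular cells, in which a shift between segments and a change inside cells cannot be told apart. The 14 proximal markers in that sum went from 43344 CPM in the control to 2412 and 5651 on day 7, with 14 of 14 detected in each. The 9 macrophage markers summed to 7.33 CPM in the control and 849 and 212 on day 7. The part of these markers' cells in the members' change was not tested. In proximal-like cells alone 1 of 88 members was lower, and in thick limb-like cells 80 of 87 were lower, as described further on. Tubular cells with no named segment numbered 333 of 5149 in the control and 1354 of 2012 and 1491 of 2450 on day 7. They enter the tubular sum but neither of these 2 classes. The largest of their clusters had Havcr1 and Vcam1 among its first 10 genes, cluster 9 had Aqp2, and cluster 11 had Slc12a3. From which segment these cells came was not tested.

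In complex I, the entry point for electrons from NADH, the largest fall among well-expressed members was that of Ndufs1, the largest subunit, which carries iron-sulfur clusters. Its level, in scaled CPM of the tubular sum, was 226 in the control, 65.3, 95.5 and 97.5 on days 1, 2 and 4, 42.2 and 61.1 at day 7, 221 and 211 at day 11, and 242 and 227 at day 14. All injured libraries up to day 7 lay below the control, and those of days 11 and 14 lay near it. The log2 change on day 7 was -2.12 ± 0.23 (SE; adjusted p = 7.32e-05). Ndufb10, a membrane-arm subunit, was at 599 CPM in the control and 163 and 208 on day 7, a log2 change of -1.69 ± 0.21 (SE; adjusted p = 0.0002). The 2 complex I members with the highest mean level, Ndufb9 and Ndufa13, are accessory subunits. Ndufb9 stood at 1229 in the control, 694, 755 and 762 on days 1, 2 and 4, 591 and 519.7 at day 7, 1309.9 and 1289 at day 11, and 1514 and 1494 at day 14, and changed by -1.15 ± 0.20 (SE; adjusted p = 0.00127). Ndufa13 stood at 1023 in the control and 339 and 428 on day 7, with a log2 change of -1.42 ± 0.22 (SE; adjusted p = 0.000641). The member of complex I that did not pass the test was Ndufa7, with a log2 change of -0.45 ± 0.20 (SE; adjusted p = 0.105). Among the assembly factors Ndufaf4 had the largest fall, -1.61 ± 0.22 (SE; adjusted p = 0.000282), and Ndufaf3, Ndufaf5 and Ndufaf7 did not pass the test, with log2 changes of -0.52, -0.43 and -0.54.

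Complex II links the citric acid cycle to the chain. Its iron-sulfur subunit Sdhb was at 514 CPM in the control, 237, 365 and 392 on days 1, 2 and 4, 219 and 225 at day 7, 860.4 and 874 at day 11, and 759 and 743 at day 14. Both day-7 libraries were under the control, and both libraries of days 11 and 14 were above it. The day-7 log2 change was -1.21 ± 0.19 (SE; adjusted p = 0.000681), with 0.10 in proximal-like cells alone, and that of the membrane anchor Sdhd was -1.16 ± 0.20 (SE; adjusted p = 0.00133). In proximal-like cells the 2 day-7 libraries of Sdhb lay on opposite sides of the control, at 326 and 479 CPM against 382. In complex III, which passes electrons from ubiquinol to cytochrome c, the small subunits Uqcrq and Uqcr10 were the highest. Uqcrq was at 1396 CPM in the control and 466 and 547 on day 7, a log2 change of -1.46 ± 0.21 (SE; adjusted p = 0.000415). Uqcr10 was at 1198, 524 and 571 in the same libraries, and changed by -1.13 ± 0.20 (SE; adjusted p = 0.00166).

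Complex IV, cytochrome c oxidase, reduces oxygen. Its largest nuclear subunit Cox4i1 was at 2899 CPM in the control, 1390.4, 1733 and 1832 on days 1, 2 and 4, 1204 and 1292 at day 7, 3421 and 3278 at day 11, and 3904 and 3629 at day 14. The injured libraries up to day 7 lay below the control and the later ones above it. The day-7 change was -1.22 ± 0.20 (SE; adjusted p = 0.00102), and that of Ndufa4 was -1.44 ± 0.20 (SE; adjusted p = 0.000389). Of the ubiquitous isoforms, Cox6a1 changed by -1.28, Cox6b1 by -1.18, Cox7a2 by -1.20 and Cox8a by -1.23 on the log2 scale, with adjusted p-values of 0.0021, 0.00152, 0.000923 and 0.00137. The heart and muscle isoform Cox7a1 was at 51.6 CPM in the control and 9.95 and 19.1 on day 7, a log2 change of -1.79 ± 0.28 (SE; adjusted p = 0.000814), with 0.29 in proximal-like cells alone. A member with a difference close to 0 was Cox7a2l, a factor that joins complexes III and IV into supercomplexes. It was at 229.9 CPM in the control, 171, 264 and 238 on days 1, 2 and 4, 204 and 229 at day 7, 303 and 299.8 at day 11, and 271 and 236 at day 14, so that the day-7 libraries lay just under the control. Its log2 change was -0.09 ± 0.20 (SE; adjusted p = 0.762). The other 3 members of complex IV that did not pass, Cox6a2, Cox6b2 and Cox8b, were all at or under 17.5 CPM in every library.

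In complex V, the ATP synthase, the catalytic beta subunit Atp5b was at 1456 CPM in the control, 753, 1096 and 1171 on days 1, 2 and 4, 616 and 756 at day 7, 2156 and 2341 at day 11, and 2299 and 2334 at day 14. Days 1 and 7 were lowest, and days 11 and 14 lay above the control. Its day-7 change was -1.09 ± 0.21 (SE; adjusted p = 0.00259). Atp5f1, of the stalk that holds the catalytic head still, was at 1603 CPM in the control and 637 and 558 on day 7, a log2 change of -1.42 ± 0.20 (SE; adjusted p = 0.000357). The largest fall in the complex was that of Atp5l, a small membrane subunit, at -1.56 ± 0.22 (SE; adjusted p = 0.000429).

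**Figure D2:**
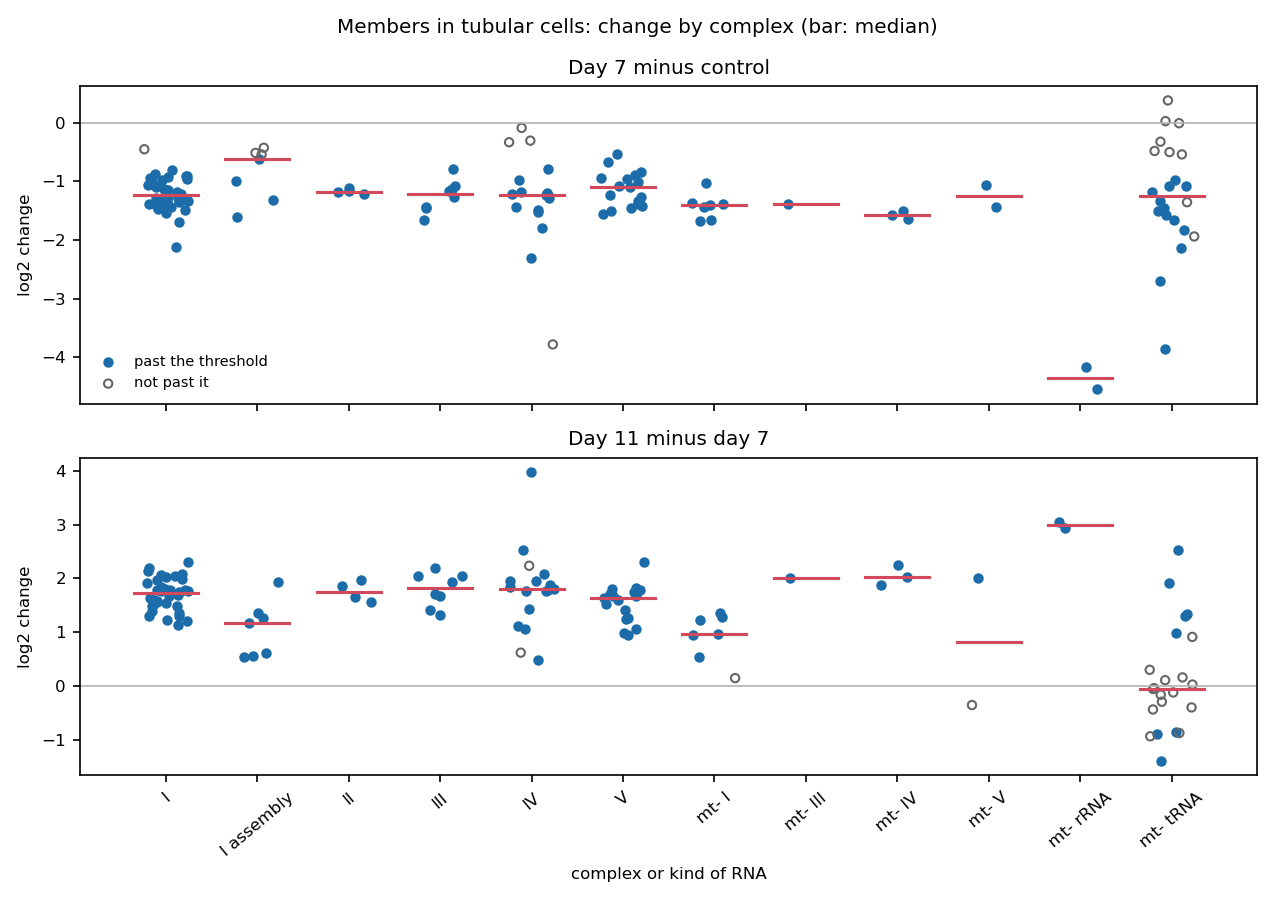
Log2 change of each member in tubular cells by complex or kind of RNA, on day 7 against the control (top) and day 11 against day 7 (bottom). Points are genes, filled where adjusted p is under 0.05, and bars are medians; the nuclear complexes have medians from -0.62 (complex I assembly) to -1.24 (complex I) on day 7, and the mt- rRNAs lie lowest at -4.54 and -4.16.

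All 13 mt- mRNAs fell from the control to day 7, with a median log2 change of -1.44 and a range from -1.67 (mt-Nd3) to -1.02 (mt-Nd1). These values are of the mixed tubular sum: in proximal-like cells alone none of the 13 passed, and 4 had estimates above 0, mt-Cytb at 0.25, mt-Nd1 at 0.38, mt-Nd2 at 0.54 and mt-Nd4 at 0.19. For complex IV, mt-Co1, the catalytic core of cytochrome c oxidase, was at 11284 CPM in the control, 8929.5, 8782 and 5340.2 on days 1, 2 and 4, 3477 and 4428 at day 7, 16006 and 21347 at day 11, and 16430.1 and 16971 at day 14. Days 1 and 2 lay closer to the control than day 7 did, and all libraries of days 11 and 14 lay above it. Its day-7 change was -1.51 ± 0.25 (SE; adjusted p = 0.00111), with -1.57 for mt-Co2 and -1.64 for mt-Co3. For complex III, mt-Cytb changed by -1.38 ± 0.27 (SE; adjusted p = 0.00256). For complex V, mt-Atp6, part of the proton channel, changed by -1.44 ± 0.27 (SE; adjusted p = 0.00237), and mt-Atp8 by -1.06 ± 0.29 (SE; adjusted p = 0.0158). For complex I, mt-Nd1 was at 7681 CPM in the control, 7229.8, 7099.8 and 6623 on days 1, 2 and 4, 3449 and 4116 at day 7, 9200.2 and 10205 at day 11, and 16900.4 and 20560.0 at day 14. All libraries of days 11 and 14 lay above the control, those of day 14 highest. The day-7 change was -1.02 ± 0.24 (SE; adjusted p = 0.00693). mt-Nd6, the mRNA coded on the opposite strand from the others, changed by -1.66 ± 0.22 (SE; adjusted p = 0.000237). The pairs mt-Atp8 and mt-Atp6, mt-Nd4l and mt-Nd4, and mt-Nd5 and mt-Nd6 overlap on the genome, and the tables are not stated to use strand, so reads of each pair cannot be fully told apart. The same holds for the 32 nuclear members that overlap a gene on the opposite strand and the 12 that overlap one on the same strand.

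The rRNAs fell by more than the mRNAs. mt-Rnr2 was at 211447 CPM in the control, 59377, 47249.9 and 21104 on days 1, 2 and 4, 8831 and 14823 at day 7, 119535 and 62470.3 at day 11, and 133279 and 146473 at day 14. The control was the highest library and day 7 the lowest, and the day-11 libraries differed from each other. The day-7 log2 change was -4.16 ± 0.40 (SE; adjusted p = 3.65e-05), and that of mt-Rnr1 was -4.54 ± 0.35 (SE; adjusted p = 1.08e-05). Beside every 100 mt- mRNA UMIs there were 335 rRNA UMIs in the control, 112, 90.9 and 58.0 on days 1, 2 and 4, 40.9 and 57.1 at day 7, 177 and 73.1 at day 11, and 140.4 and 141 at day 14. The ratio was lower in every injured library than in the control. Of the 22 tRNAs 13 fell in the tubular sum and none rose, where 35% of all genes changed. The largest fall among tRNAs that reached 10 CPM in any library was that of mt-Tv, the tRNA printed above between the rRNAs, at 57.4 CPM in the control and 3.71 and 4.10 on day 7, a log2 change of -3.86 ± 0.23 (SE; adjusted p = 5.19e-06). In the tubular sum the 3 neighbours thus had log2 changes from -4.54 to -3.86, and the next mRNA along the strand, mt-Nd1, of -1.02. For these 3 neighbours the differences were smaller in proximal-like cells alone, where mt-Tv was at 53.0 CPM in the control and 19.8 and 19.4 on day 7. There mt-Rnr2 was at 226558 CPM in the control and 16156 and 42122 on day 7. Some other tRNAs were higher in both day-7 libraries of proximal-like cells than in the control. Thus mt-Ti was at 41.5 CPM in the control and 145 and 168 on day 7. In the same libraries mt-Tm was at 41.6, 105 and 123, and mt-Tq at 22.7, 175 and 44.8. The tRNAs lower in both were mt-Tv and the scarce mt-Th, mt-Tl2 and mt-Ts2. As background, mature tRNAs carry no long A tail, and which form of these tRNAs was captured was not tested.

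**Figure D3:**
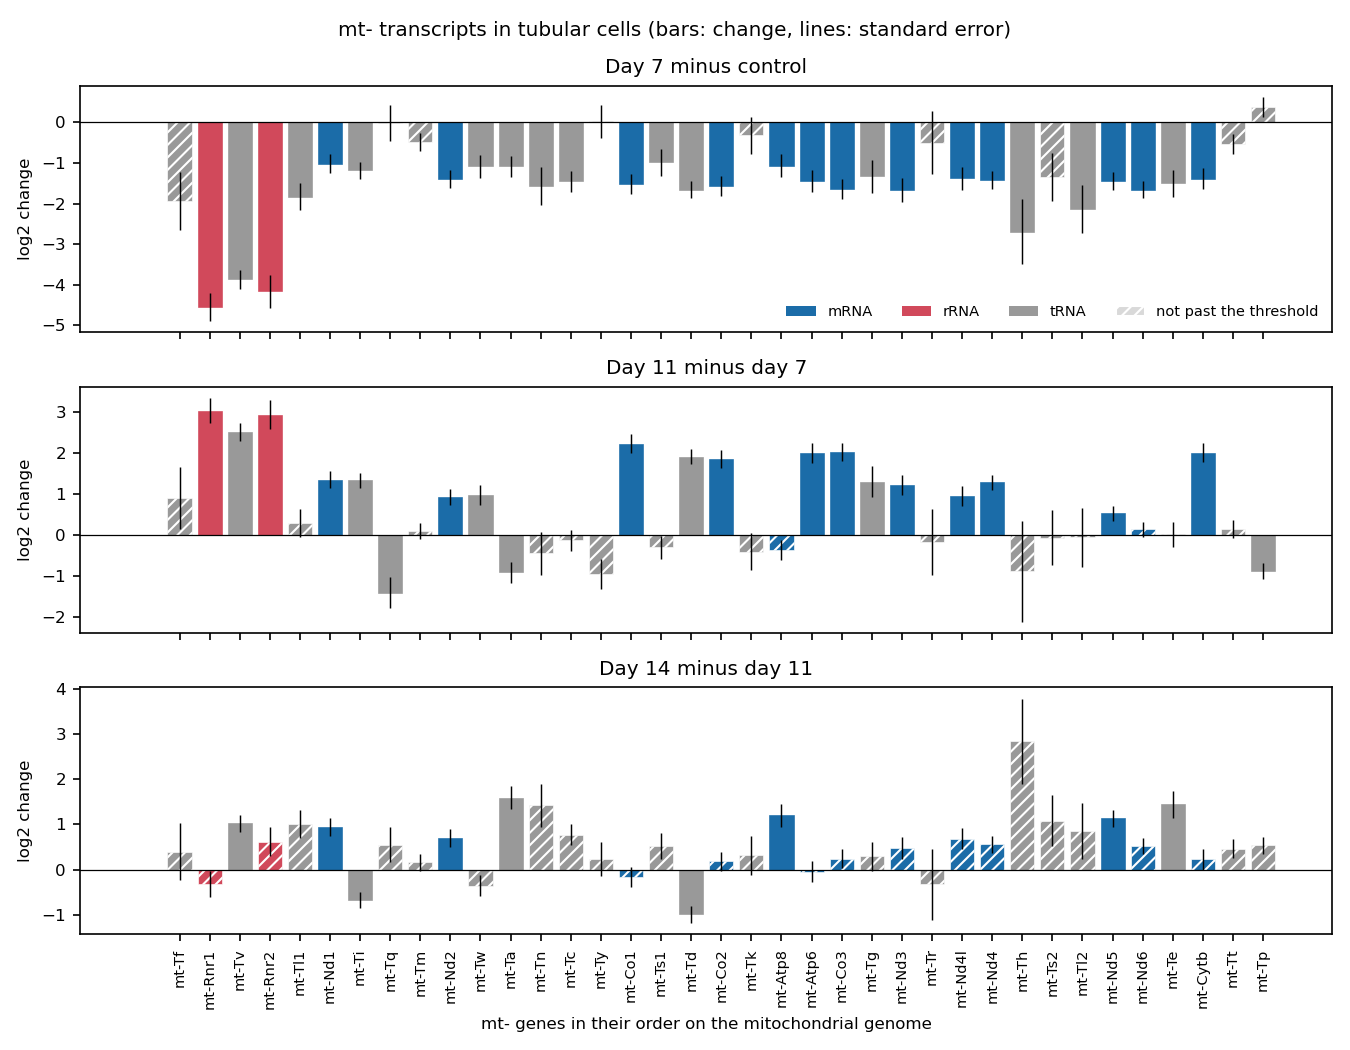
Log2 change (bars) and standard error (lines) of the 37 mt- transcripts in tubular cells, in their order on the mitochondrial genome, for day 7 against the control, day 11 against day 7 and day 14 against day 11; hatched bars did not pass the threshold. The block mt-Rnr1, mt-Tv and mt-Rnr2 has changes of -4.54, -3.86 and -4.16 in the top panel and 3.04, 2.53 and 2.94 in the middle one.

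From day 7 to day 11, 87 of the 89 nuclear members rose in tubular cells and none fell, where 45.5% of all genes tested changed, 3728 of 15966 of them upwards. The median log2 change was 1.70, against -0.09 over all genes, and the exceptions were Cox6b2 and Cox8b. By complex, 36 of 36, 7 of 7 assembly factors, 4 of 4, 8 of 8, 15 of 17 and 17 of 17 rose. In the same sum the proximal markers were at 2412 and 5651 CPM on day 7 and 50855 and 57175 on day 11, with all 14 detected. In proximal-like cells alone 42 of 88 members rose, where 8% of all genes changed. The largest rises among well-expressed members were those of Ndufv3, a small subunit of the NADH-binding module of complex I, Atp5l, and Ndufb4, a membrane-arm subunit. Ndufv3 was at 140.4 and 188 CPM on day 7 and 743 and 877 on day 11, a log2 change of 2.30 ± 0.20 (SE; adjusted p = 1.43e-05). Atp5l was at 658 in the control, 304, 437 and 288 on days 1, 2 and 4, 203 and 244 at day 7, 965 and 1229 at day 11, and 594 and 518 at day 14, and rose by 2.30 ± 0.20 (SE; adjusted p = 1.25e-05). Both of its day-11 libraries were the highest of the 10. Ndufb4 rose by 2.2 ± 0.21 (SE; adjusted p = 2.27e-05), Sdhb by 1.96 ± 0.16 (SE; adjusted p = 1.02e-05) and Uqcrq by 1.94 ± 0.18 (SE; adjusted p = 2.16e-05). Cox4i1 rose by 1.42 ± 0.17 (SE; adjusted p = 9.93e-05), and Atp5b by 1.71 ± 0.18 (SE; adjusted p = 4.29e-05).

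The mt- mRNAs rose unequally to day 11. Of the 13, 11 rose and none fell, with a median log2 change of 1.29. The 5 mRNAs mt-Co1, mt-Co2, mt-Co3, mt-Cytb and mt-Atp6 rose by 1.87 to 2.24, while the 7 complex I mRNAs had changes of 0.15 to 1.36, so these 2 sets did not overlap. The difference does not follow the complexes throughout: mt-Atp8, of complex V, lay below all 7 complex I mRNAs and is in neither set, and the sets were formed with these values known. mt-Co1 rose by 2.24 ± 0.22 (SE; adjusted p = 3e-05), and mt-Nd5, the lowest rise that passed, by 0.53 ± 0.19 (SE; adjusted p = 0.0383). In proximal-like cells alone mt-Nd5, mt-Nd2 and mt-Nd6 had changes of -0.17, -0.18 and -1.02. The 2 that did not pass in the tubular sum were mt-Nd6, at 0.15 ± 0.18 (SE; adjusted p = 0.543), and mt-Atp8, at -0.36 ± 0.24 (SE; adjusted p = 0.259). mt-Nd5 itself was at 5793 CPM in the control, 5065, 2730.1 and 2266 on days 1, 2 and 4, 2349 and 1935 at day 7, 3114 and 3088 at day 11, and 6293 and 7309 at day 14. Its day-11 libraries thus lay below the control and below day 14, where those of mt-Co1 lay at or near the top of all 10. As a share of the 13 mt- mRNAs, the complex I mRNAs made 41.8% in the control, 47.7%, 39.7% and 44.1% on days 1, 2 and 4, 47.8% and 42.7% at day 7, 31.4% and 28.5% at day 11, and 40.5% and 42.8% at day 14. Both day-11 libraries were below all others, and this share has no test, since it is a sum over members. Of the rRNAs, mt-Rnr1 rose by 3.04 ± 0.31 (SE; adjusted p = 3.2e-05) and mt-Rnr2 by 2.94 ± 0.35 (SE; adjusted p = 9.29e-05). Of the 22 tRNAs 5 rose and 3 fell, a smaller share than the 45.5% of all genes called in this comparison. mt-Tv rose by 2.53 ± 0.22 (SE; adjusted p = 1.28e-05), and mt-Td, next to mt-Co2, by 1.92 ± 0.19 (SE; adjusted p = 2.61e-05), while mt-Tq fell, with a log2 change of -1.39 ± 0.39 (SE; adjusted p = 0.014).

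Between days 11 and 14 fewer members moved: 10 of 89 nuclear members fell and none rose, where 12.5% of all genes changed. These were Atp5l, Atp5g2, Atp5h, Cox5b, Cox6b2, Cox7c, Ndufaf5, Ndufb2, Ndufb4 and Ndufs3. Atp5l went from 965 and 1229 to 594 and 518 CPM, a log2 change of -0.98 ± 0.19 (SE; adjusted p = 0.00981). Atp5g2, a subunit of the rotating ring, changed by -0.92 ± 0.17 (SE; adjusted p = 0.00836), and Ndufb4 by -0.89 ± 0.20 (SE; adjusted p = 0.0192). The count rests on single libraries: it was smaller without any 1 library of day 11 or day 14, and larger without either day-7 library. The share of all genes called in those fits is not given. Of the mt- mRNAs 4 of 13 rose: mt-Nd1 by 0.95 ± 0.20 (SE; adjusted p = 0.0142), mt-Nd2 by 0.69 ± 0.19 (SE; adjusted p = 0.0421), mt-Nd5 by 1.13 ± 0.19 (SE; adjusted p = 0.00548), and mt-Atp8 by 1.20 ± 0.25 (SE; adjusted p = 0.0131). This count, too, was smaller without day-11 replicate 1 or without either day-14 library. The 7 complex I mRNAs had changes of 0.48 to 1.13 and mt-Co1, mt-Co2, mt-Co3, mt-Cytb and mt-Atp6 of -0.16 to 0.24, while mt-Atp8, with 1.20, lay above both sets. The 2 comparisons share the day-11 libraries, so the difference on day 14 is no second observation of the one on day 11. The rRNAs did not pass the test, with -0.31 for mt-Rnr1 and 0.62 for mt-Rnr2.

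Day 14 was set against the control last. Of the 89 nuclear members 1 was lower, Ndufaf5 at -0.75 ± 0.20 (SE; adjusted p = 0.0478), and none was higher, where 8% of all genes changed. The median log2 difference was 0.21, against 0.06 over all genes. For the other fits that follow, the share of all genes called is not given. With only the control and day-14 libraries in the fit, 19 members passed. The Ndufaf5 call was absent without any 1 of the day-11 or day-14 libraries, and 8 members passed without either day-7 library. Of the mt- mRNAs mt-Nd1 was higher, at 1.29 ± 0.26 (SE; adjusted p = 0.0189), and mt-Nd6 lower, at -0.99 ± 0.22 (SE; adjusted p = 0.026). That count of 2 was 1 without day-14 replicate 1 and 0 without day-14 replicate 2. mt-Rnr1 was lower, at -1.81 ± 0.34 (SE; adjusted p = 0.0147), and mt-Rnr2 had a difference of -0.60 ± 0.39 (SE; adjusted p = 0.362).

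Other mitochondrial genes were read from 6 lists. As background, 2922 of the 15966 genes tested fell on day 7 (35% changed in either direction), and 3728 rose on day 11 (45.5% in either direction). The citric acid cycle, which feeds the chain, had 16 of 17 genes lower on day 7 and 17 of 17 higher on day 11. The gene that did not pass was Suclg1, with a log2 change of -0.48 on day 7. On day 14 it stood above the control by 1.24 ± 0.24 (SE; adjusted p = 0.0164). Of the isocitrate dehydrogenase subunit Idh3b the day-11 rise was 1.79, the largest of the list, and the pyruvate dehydrogenase subunit Dlat rose again to day 14, by 0.62. Of 36 electron carriers and assembly factors 23 fell on day 7 and 31 rose on day 11. Acad9, a complex I assembly factor, fell from 84.1 to 14 and 15 CPM, a log2 change of -2.53 ± 0.21 (SE; adjusted p = 1.49e-05). It then rose on day 11, fell by 0.99 on the log2 scale to day 14, and on day 14 was lower than in the control, with a log2 change of -1.01 ± 0.20 (SE; adjusted p = 0.0189). Cycs, cytochrome c itself, had log2 changes of -1.93 to day 7 and 2.54 from day 7 to day 11.

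Genes of the mitochondrial ribosome were taken by symbol alone (Mrpl and Mrps), and whether each product is part of the ribosome was not checked. Of these 34 of 76 fell on day 7, with a median log2 change of -0.54, and 71 of 76 rose on day 11, with a median of 1.0. Mrpl12 had the largest day-7 fall, -1.60 ± 0.23 (SE; adjusted p = 0.000404), and Mrps36 the largest fall that passed from day 11 to day 14, -1.06 ± 0.18 (SE; adjusted p = 0.0056), while Mrpl3 stood above the control on day 14 by 1.10 ± 0.26 (SE; adjusted p = 0.0339). Of 8 carriers and membrane proteins 4 fell and 7 rose, among them the outer membrane channel Vdac1, with a log2 change of -1.38 on day 7, and the prohibitin Phb, with one of 1.86 on day 11. Of 23 genes for upkeep and expression of mitochondrial DNA 9 fell on day 7, and 14 rose and 1 fell on day 11. Tfam, which packs mitochondrial DNA and starts its transcription, was at 82.2 CPM in the control, 44.1, 45.1 and 52.9 on days 1, 2 and 4, 42.8 and 41.2 at day 7, 66.1 and 63.9 at day 11, and 86.4 and 76.9 at day 14, and its day-7 change was -0.97 ± 0.19 (SE; adjusted p = 0.00261). Lrpprc, which stabilises mt- mRNAs, fell on day 7, with a log2 change of -1.42 ± 0.20 (SE; adjusted p = 0.000363), and the helicase Peo1 rose on day 11, by 1.49. Polrmt, the mitochondrial RNA polymerase, was at or under 20.4 CPM in every library, did not pass on day 7, with a log2 change of 0.09 ± 0.26 (SE; adjusted p = 0.808), and on day 14 stood above the control by 1.10 ± 0.25 (SE; adjusted p = 0.0314). Pnpt1, an RNA-degrading enzyme of mitochondria, fell from day 7 to day 11, with a log2 change of -0.80 ± 0.29 (SE; adjusted p = 0.0457).

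Of 10 regulators of nuclear mitochondrial genes 5 fell on day 7, and on day 11 2 rose and 1 fell, with a median log2 change of -0.06. The coactivator Ppargc1a was at 156 CPM in the control, 72.2, 66.5 and 62.3 on days 1, 2 and 4, 80.3 and 68.5 at day 7, 79.6 and 86.4 at day 11, and 111 and 92.7 at day 14. No injured library reached the control. The day-7 change was -1.07 ± 0.20 (SE; adjusted p = 0.00237), and the day-11 change 0.16 ± 0.17 (SE; adjusted p = 0.476). Its partner Esrra fell on day 7, with a log2 change of -1.06 ± 0.26 (SE; adjusted p = 0.0102), and did not pass on day 11, at 0.36 ± 0.23 (SE; adjusted p = 0.222). Esrrb fell on day 7, with -2.65 ± 0.34 (SE; adjusted p = 0.000226), and rose on day 11, with 2.21 ± 0.32 (SE; adjusted p = 0.000306), but both signs turned in proximal-like cells alone, at 0.16 and -0.90. Nrf1, whose motif is printed above in Cox6a1, was at or under 11.4 CPM in every library and did not pass in any tubular comparison, with a log2 change of 0.65 ± 0.26 (SE; adjusted p = 0.0751), on day 7. Yy1 fell from day 7 to day 11, with a log2 change of -0.90 ± 0.20 (SE; adjusted p = 0.004), and Gabpa fell on day 7, with a log2 change of -0.62 ± 0.21 (SE; adjusted p = 0.0415), and rose from day 11 to day 14, with a log2 change of 0.68 ± 0.18 (SE; adjusted p = 0.0376).

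The classes were then tested singly. Of the classes tested, thick limb-like cells had the most members called. There were 709 in the control, 249 and 333 on day 7 and 419 and 354 on day 11. Their nuclear share of UMIs outside mt- genes was 9.75% in the control, 3.93%, 3.94% and 5.98% on days 1, 2 and 4, 3.96% and 4.53% at day 7, 11.5% and 10.8% at day 11, and 10.3% and 10.5% at day 14. On day 7, 80 of 87 nuclear members were lower (median log2 change -1.38), where 20.4% of all genes changed, and 13 of 13 mt- mRNAs were lower (median -2.2). From day 7 to day 11, 83 of 87 nuclear members and 11 of 13 mt- mRNAs rose, where 27.5% of all genes changed. Cox4i1 in these cells was at 3816 CPM in the control, 1560.3, 1306 and 2093 on days 1, 2 and 4, 1362 and 1491 at day 7, 4832 and 4166 at day 11, and 4524 and 4594 at day 14. The injured libraries up to day 7 lay at 2093 or less, and the control and later libraries at 3816 or more. The log2 change of Cox4i1 was -1.42 ± 0.21 (SE; adjusted p = 8.42e-05) to day 7 and 1.66 ± 0.18 (SE; adjusted p = 3.56e-06) from day 7 to day 11. mt-Co1 was at 19639.8 CPM in the control, 4228 and 5166 on day 7 and 22071 and 25217 on day 11. Different clusters held these cells: cluster 7, led by Egf, held 99.7% of them in the control and 97.1% and 97.7% on day 11, and cluster 13, led by Umod and with Lcn2 among its first 10 genes, held 96.4% and 91.3% on day 7. The 6 thick limb markers summed to 17673 CPM in the control, 7612 and 13436 on day 7 and 16433 and 17625 on day 11, and the 7 injured-tubule markers to 1953, with Havcr1, Vcam1 and Krt20 at 0, against 26863 and 32546 on day 7. Of other cell types, the 9 macrophage markers summed to 2.54 CPM in the control, with C1qb, Emr1, Lyz2 and Ms4a7 at 0, 519 and 150.3 on day 7, with all 9 detected, and 25.8 and 34.6 on day 11. The 14 proximal markers summed to 1182 in the control, 134 and 98.8 on day 7, with Slc22a8 and Slc7a13 at 0 in replicate 1, and 2157 and 3988 on day 11. The part of all these markers in the members' change was not tested.

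Proximal-like cells numbered 3573 in the control but only 131 and 242 on day 7, and their nuclear share was 5.36% in the control, 4.29%, 6.04% and 5.91% on days 1, 2 and 4, 4.92% and 5.95% at day 7, 7.41% and 7.58% at day 11, and 6.54% and 6.32% at day 14. On day 7, 1 of 88 nuclear members was lower, Ndufaf4 at -1.31 ± 0.29 (SE; adjusted p = 0.0167), where 8.06% of all genes changed. The median over the 88 was -0.32, and 13 had an unadjusted p under 0.05, as did 3154 of all 13675 genes tested. No mt- mRNA passed, none had an unadjusted p under 0.05, and their median was -0.06. Both rRNAs were lower, mt-Rnr2 with a log2 change of -2.96 ± 0.62 (SE; adjusted p = 0.0142). Cox4i1 was at 2599 CPM in the control and 1816 and 2146 on day 7, a log2 change of -0.39 ± 0.33 (SE; adjusted p = 0.507). mt-Co1 was at 6740.4 CPM in the control and at 4967 and 7721 on day 7, with a log2 change of -0.09 ± 0.42 (SE; adjusted p = 0.925). The 2 day-7 libraries of mt-Co1 lay on opposite sides of the control. Their proximal cells also differed: cluster 14, led by Fgg and with Havcr1 among its first 10 genes, held 91.6% of them in replicate 1 and 41.3% in replicate 2, against 0.168% in the control, and proximal markers summed to 19483 and 63774 CPM, against 74171. The 9 macrophage markers summed to 974.8 and 227 CPM (Emr1 at 0 in replicate 2), against 9.95 with all 9 detected in the control, and to 40.2 and 54.3 on day 11, and their part was not tested. Without replicate 2 of day 7 more members were called lower, and the share of all genes called in that fit is not given. Over days 7 to 11, 42 of 88 nuclear members rose with a median of 0.94, among the mt- mRNAs mt-Co1 rose and mt-Nd6 fell, and of the rRNAs mt-Rnr1 rose. The count of 42 was smaller without either day-11 library or day-7 replicate 1, and larger without day-7 replicate 2. For these fits, too, the share of all genes called is not given.

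The difference between the 2 classes was tested in 1 fit with the library as a block, an addition made after these data were seen. From control to day 7, 67 of 87 nuclear members had a lower change in thick limb-like than in proximal-like cells and none a higher one, with a median difference of -1.09, where 10.7% of all genes differed. All 13 mt- mRNAs did so too, with a median of -2.26, and both rRNAs. For Cox4i1 the difference was -1.08 ± 0.25 (SE; adjusted p = 0.00135), and for mt-Co1 -2.01 ± 0.24. Over days 7 to 11, 56 of 87 nuclear members, all 13 mt- mRNAs and both rRNAs had a higher change in thick limb-like cells, where 5.82% of all genes differed. A higher change was not always a larger rise: mt-Atp8 had log2 changes of -0.07 in thick limb-like and -0.88 in proximal-like cells. The count of 56 was smaller without either day-11 library and without day-7 replicate 2. The share of all genes called in those fits is not given, so this does not show a change of the members alone. The proximal values of both tests rest on the 131 and 242 day-7 cells. These libraries differed: cluster 14 held 91.6% of the proximal-like cells in replicate 1 and 41.3% in replicate 2. How the counts from control to day 7 change without either library is not given. Tubular cells with no named segment, 1354 and 1491 on day 7, entered neither class.

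Collecting duct principal-like cells, from 137 to 362 per library, had fewer members called than thick limb-like cells. Their nuclear share was 5.39% in the control, 3.98%, 4.04% and 4.84% on days 1, 2 and 4, 3.71% and 4.12% at day 7, 5.46% and 6.25% at day 11, and 7.40% and 7.51% at day 14. On day 7, 9 of 86 nuclear members and both rRNAs were lower, where 8.24% of all genes changed. No mt- mRNA passed, and 2 had an unadjusted p under 0.05, as did 2060 of all 9780 genes tested. The count of 9 was larger without day-7 replicate 2. Over days 7 to 11, 47 of 86 nuclear members and 5 mt- mRNAs rose and 2 mt- mRNAs fell, where 13.6% of all genes changed. The count of 47 was smaller without day-11 replicate 2 and without day-7 replicate 1. The share of all genes called in the fits without single libraries is not given. Cox7a1 had the lowest log2 change of the nuclear members here on day 7, -2.86 ± 0.39 (SE; adjusted p = 1.57e-05). Distal-like cells had the highest nuclear share of all classes in the libraries with at least 20 of them: 10.97% in the control, 11.8% on day 4 (39 cells), 12.6% in day-7 replicate 2 (22 cells), 12.8% and 13.6% on day 11, and 12.2% and 12.4% on day 14. They were 334 in the control, 2, 0 and 39 on days 1, 2 and 4, and 0 and 22 on day 7, and were not tested.

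Outside the tubule the nuclear members made a smaller share of UMIs. In macrophage-like cells, which numbered 1048 and 1580 on day 7 and 129 and 82 on day 11, it ranged from 1.76% to 2.69% over the 10 libraries, and in endothelial-like cells from 2.07% to 3.11%. Over days 7 to 11 none of 78 nuclear members passed the edgeR test in macrophage-like cells, with a median log2 change of 0.42, where 6.29% of all genes changed. Of the 78, 18 had an unadjusted p under 0.05, as did 1098 of all 5719 genes tested. Some members were called without day-11 replicate 1 or without day-7 replicate 2. In endothelial-like cells 16 of 80 rose, where 9.27% of all genes changed. The count of 16 was smaller without either day-11 library and without day-7 replicate 1. The share of all genes called in the fits without single libraries is not given. The mt- RNAs did rise in both classes: 9 of 13 mt- mRNAs and both rRNAs in macrophage-like cells, and 11 of 13 and both rRNAs in endothelial-like cells. mt-Co1 in macrophage-like cells was at 3579 CPM in the control, 3258, 2429 and 2311 on days 1, 2 and 4, 2286 and 2884 at day 7, 9206 and 11547 at day 11, and 4342 and 5558 at day 14. Only the day-11 libraries stood clear of the others, and the log2 change was 2.0 ± 0.26 (SE; adjusted p = 2.38e-07). In endothelial-like cells mt-Co1 was at 2599 and 2540.4 on day 7 and 9462 and 13885 CPM on day 11. Cox4i1 in macrophage-like cells, by contrast, was at 1208 and 1247 on day 7 and 1503 and 1372 on day 11. Proximal markers in these classes also differed between days 7 and 11. In macrophage-like cells the 14 markers summed to 4925 (Slc5a12 and Slc22a8 at 0) in the control, 337 (Slc22a8 at 0) and 363 CPM on day 7 and 3873 and 5679 (Cubn and Slc22a8 at 0) on day 11, and 7250.1 and 4931 on day 14, where mt-Co1 was lower than on day 11. In endothelial-like cells they summed to 657 and 407 on day 7, with 11 and 10 of 14 detected and Slc22a8 and Slc13a3 at 0 in both, and to 4815 and 7460.2 on day 11, with all 14 detected. Their part in the mt- change was not tested. Tested directly, 72 of 89 nuclear members had a higher change from day 7 to day 11 in tubular than in macrophage-like cells. The median difference was 1.29 against 0.46 over all genes, and 6.06% of genes were called. Fewer members were called without day-11 replicate 1. None of the 13 mt- mRNAs or 2 rRNAs passed in that test, with differences from -0.25 to 0.33 (log2) for the mRNAs. None of the mRNAs had an unadjusted p under 0.05, against 2193 of all 15451 genes tested. A value that misses the threshold does not show that the classes moved alike.

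The makeup of the mt- mRNAs set the day-11 libraries apart in every class. Among the classes with at least 20 cells, the complex I share of the mt- mRNAs ran from 38.9% (proximal) to 44.2% (macrophage) in the control, from 31.1% to 35.3% in day-11 replicate 1 and from 28.2% to 31.4% in day-11 replicate 2. Every class of both day-11 libraries was thus below every class of the control. These 2 libraries were also the only ones with barcodes under 500 genes or UMIs, 5362 and 5424 of them. A difference of the day cannot be told apart from a difference of these libraries. Other libraries had wider ranges between classes, such as 44.3% to 52.1% on day 1, 38.1% to 46.2% on day 2 and 39.6% to 47.5% in day-7 replicate 2. In the control and the day-11 libraries the nuclear share differed between classes by a factor of 6.24, 5.33 and 5.18. The lower changes of the complex I mRNAs on day 11 also appeared in each class tested: 0.43 to 1.43 against 1.72 to 2.14 for mt-Co1, mt-Co2, mt-Co3, mt-Cytb and mt-Atp6 in macrophage-like cells, 0.51 to 1.61 against 2.0 to 2.21 in endothelial-like cells, 0.32 to 1.61 against 2.04 to 2.33 in thick limb-like cells, -0.80 to 0.32 against 0.78 to 0.98 in collecting duct principal-like cells and -1.02 to 0.42 against 0.77 to 1.32 in proximal-like cells, with mt-Atp8 in neither set. All these classes come from the same 4 libraries, so they are not separate replicates. The rRNA level beside mt- mRNA also differed between classes, from 170.4 rRNA UMIs per 100 mt- mRNA UMIs in thick limb-like to 764 in T or NK-like cells of the control.

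**Figure D4:**
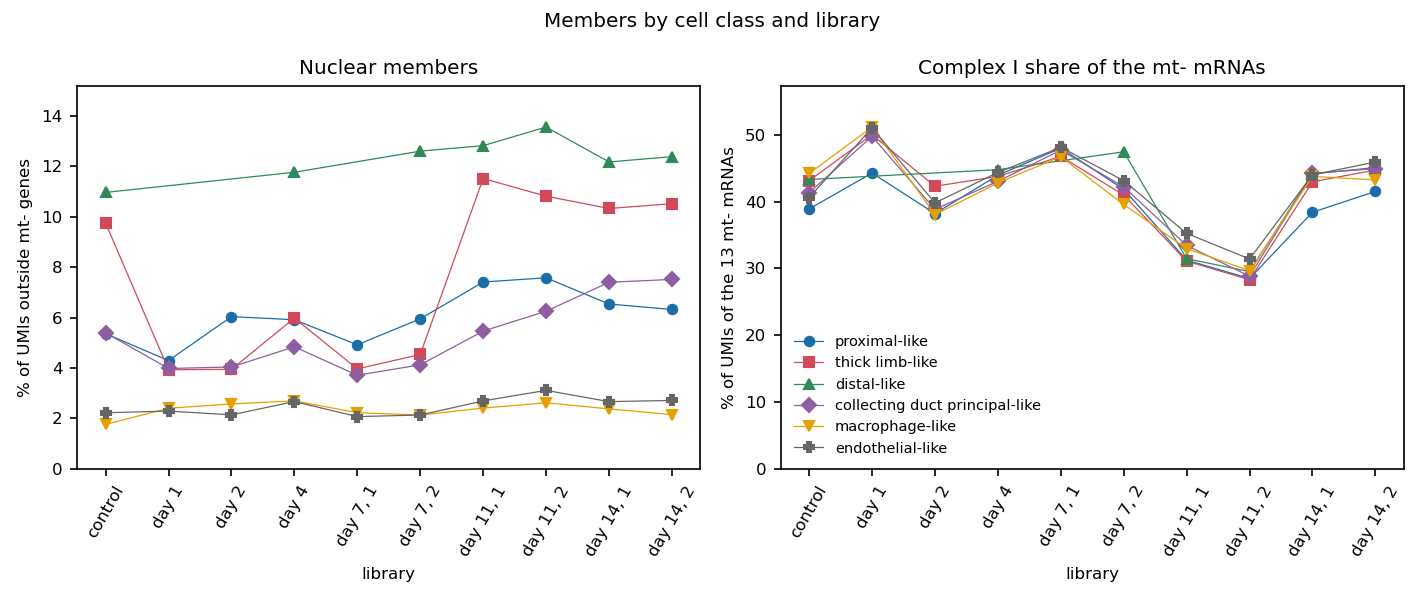
Nuclear members as a share of UMIs outside mt- genes (left) and complex I mRNAs as a share of the UMIs of the 13 mt- mRNAs (right), both in percent, by library and cell class; points are classes with at least 20 cells. On the left the thick limb-like cells go from 9.75% in the control, above the proximal-like cells at 5.36%, to 3.96% and 4.53% on day 7, below the proximal-like cells at 4.92% and 5.95%; on the right the classes of the day-11 libraries lie below those of the control.

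Isoforms of 6 subunits were compared across classes as a description, with no test. The members were not among the genes used for clustering. Cox4i2, the oxygen-responsive isoform of Cox4i1, had 66 UMIs in 358 mural-like cells, 115.5 CPM with all libraries summed and no scaling, as for all isoform levels here, with an exact 95% Poisson interval of 89.3 to 147 that covers counting error only. In the 8 libraries with at least 20 such cells it ran from 57.3 to 198, with a median of 83.6. In the other 9 classes summed for isoforms it was at or under 1.116 CPM, with the highest of these in endothelial-like cells. Neutrophil-like, urothelial-like and unnamed clusters were not summed. Ndufa4l2, the isoform of Ndufa4, had 91 UMIs in mural-like cells, 159 CPM (128 to 196), from 0 to 314 by library. Its level in the same 9 classes was at most 2.41, in distal-like cells. Their widespread partners were high in many classes: Cox4i1 was at 1309 and Ndufa4 at 914 in mural-like cells and at 2431 and 2564 in proximal-like cells. Cox7a1 was highest in the tubule, with libraries summed at 76.0 CPM in collecting duct principal-like cells, 47.6 in tubular cells with no named segment, 41.7 in distal-like, 31.5 in thick limb-like and 22.8 in proximal-like cells, and at most 8.64 outside the tubule. By library the collecting duct values ran from 6.79 to 164, with a median of 60.2, those of tubular cells with no named segment from 14.7 to 246, with a median of 83.8, and the thick limb values from 7.37 to 70.0. Neighbours in this order thus overlapped, and by the median over libraries the first and second change places. The second includes cluster 9, which carries collecting duct markers, so these classes may share cell types. The muscle isoform Cox8b had 25 UMIs in distal-like cells, 4.01 CPM, against 0.0712 in proximal-like cells.

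**Figure D5:**
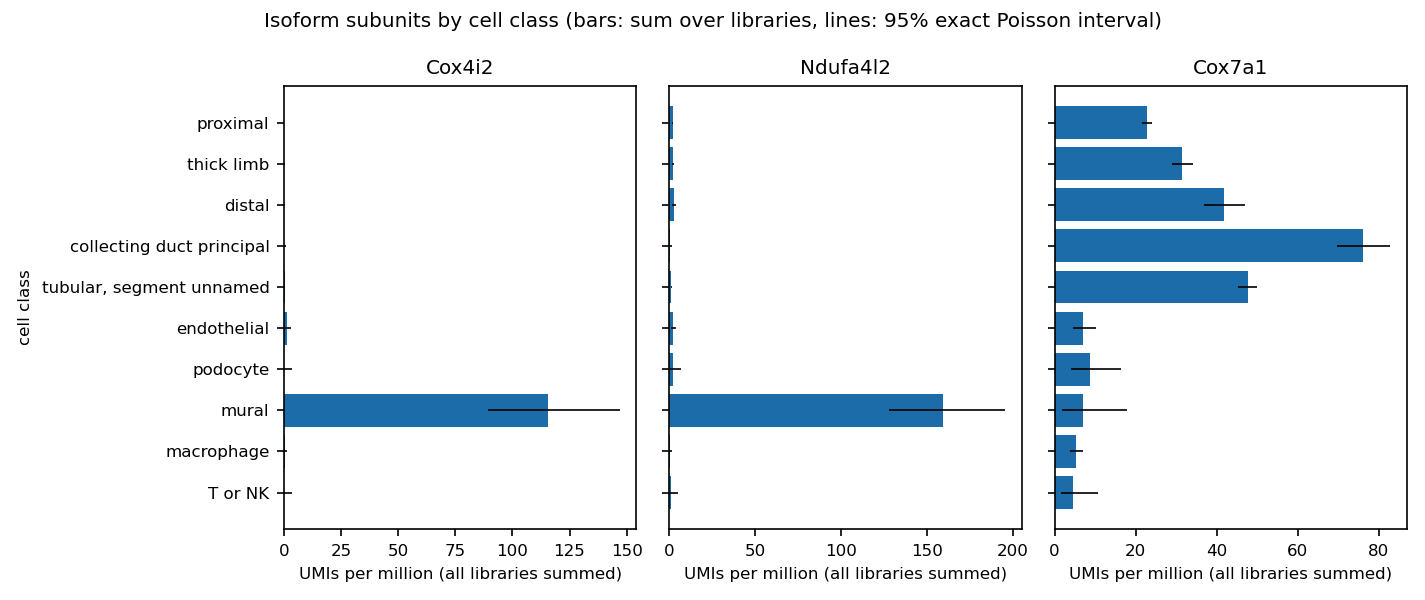
Level of the isoform subunits Cox4i2, Ndufa4l2 and Cox7a1 by cell class, in unscaled CPM with all libraries summed (bars) and exact 95% Poisson intervals (lines). Cox4i2 and Ndufa4l2 stand out in mural-like cells at 115.5 and 159, and Cox7a1, with libraries summed, is highest in collecting duct principal-like cells at 76.0.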

How the data were processed

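The 10 Drop-seq libraries of mouse kidney cortex were analysed from the gene-by-cell tables of UMI counts that the authors deposited. Per the submitters' processing notes, Bowtie2 2.2.7 and mm10 were used, with no role given; the counting tool, strand use and cell calling are not given in the sources used here. The counts are not normalized, and the tables hold no unmapped columns of per-sample values. Libraries were grouped by the day in their labels.

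Cells needed a minimum of 500 UMIs and 500 genes, cells with over 50% of UMIs from mt- genes were left out, and so was the top 5% of doublet scores per library (scanpy 1.11.5 with its scrublet). Clusters (2000 variable genes, 30 principal components, 20 neighbours, Leiden resolution 1) were named by marker lists. Counts were summed per library and class and fitted over all 10 libraries with edgeR 4.0.16 (TMM scaling, also in the CPM printed for tested classes, filterByExpr, quasi-likelihood test, Benjamini-Hochberg adjustment over all genes). Where 2 classes were compared, library was a block. The procedure was also run on simulated counts, whose outcome is not reported here. All simulated libraries had the same mean profile apart from the changes set, so shifts in cell makeup were not covered. The members, gene lists and tests were chosen with earlier results of these data known.

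Named genes were the mt- mRNAs, the 2 highest nuclear members per complex, the isoform groups, the 3 largest called changes per direction in tubular cells with average log2 CPM of at least 5, and the most changed gene of each other list, of which 1 is not reported here. The chi-square per degree of freedom between libraries of one day was 15.8 to 28.0, so none was counted as a copy. Replicate numbers did not pair the libraries. Alternatives were another scaling, DESeq2 1.42.0, other mitochondrial limits, no filter on low counts, doublets kept, all deposited barcodes and proximal cells alone. Others were only the groups compared and leaving out each library of a replicated day. Counts of members with single libraries left out or only some groups in the fit are given without the share of all genes called in that fit. Promoters and mitochondrial transcripts were read from RefSeq and GENCODE M21 tables of GRCm38; in a check of orientation, bases after the start lay in a sense transcript of the gene for 69 of 76 promoters. The thick limb, collecting duct and thick limb minus proximal fits were added after seeing the data.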

Additional observations from a re-analysis of the deposited data

Results flagged for a closer look

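The difference between cell classes in the change over days was called for many members in each of 3 tests. From day 7 to day 11, 72 nuclear, mt- mRNA and mt- rRNA members changed differently in tubular and macrophage-like cells, all of them nuclear, where 6.06% of all genes differed. Between thick limb-like and proximal-like cells 82 differed from control to day 7 and 71 from day 7 to day 11, where 10.7% and 5.82% of all genes differed. Both counts included all 13 mt- mRNAs and both rRNAs. The counts from day 7 to day 11 depended on single libraries, as given below. How the count from control to day 7 changes without single libraries is not given.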

How the results depend on the processing

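In tubular cells single libraries of days 7, 11 and 14 were left out in turn. The counts of nuclear members and mt- mRNAs that fell to day 7 and rose to day 11 then stayed similar. Each such fit leaves 1 library in a group. The only control library was not left out, so how far the falls to day 7 rest on it was not tested. Proximal-like cells alone differed: from control to day 7 they gave 1 nuclear member and 0 mt- mRNAs lower, from day 7 to day 11 42 nuclear members, 1 mt- mRNA and 1 rRNA higher, from day 11 to day 14 5 nuclear members lower and 1 mt- mRNA higher, and 0 mt- mRNAs called between day 14 and the control. There, single estimates, given here without SE, also had the other sign. On day 7 Cox7a1 was at 0.29, Esrrb 0.16, Ndufa4l2 0.30, Sdhb 0.10, mt-Cytb 0.25, mt-Nd1 0.38, mt-Nd2 0.54 and mt-Nd4 0.19. None of the oxidative phosphorylation members among them passed on day 7. The 2 day-7 libraries lay on opposite sides of the control for Ndufa4l2, Sdhb, mt-Cytb and mt-Nd4, and both above it for Cox7a1, mt-Nd1 and mt-Nd2. On day 11 Cox6a2 was at -0.24, Esrrb -0.90, Lrpprc -0.52, mt-Nd2 -0.18 and mt-Nd5 -0.17. The day-11 change of mt-Nd6, which did not pass in the tubular sum at 0.15, was -1.02 in proximal-like cells and was called lower there. The cause was not tested. Of 2005 values of 125 results on named genes, 1804 kept direction and call, 188 lost the call and 13 changed sign.

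The day-14 counts are the least firm. From day 11 to day 14, 10 nuclear members were lower, 24 with only the groups compared and 0 to 19 without single libraries, and 4 mt- mRNAs were higher, 8 with no filter on low counts and 0 to 6 without single libraries. Against the control, the 1 nuclear member called became 0 with DESeq2 or with doublets kept, 2 with all deposited barcodes or a mitochondrial limit of 25%, 19 with only the groups compared, 6 with no filter and 0 to 8 without single libraries. The 2 mt- mRNAs became 7 with only the groups compared, 1 at 25%, 4 with no filter and 0 to 3 without single libraries. Fewer samples or genes enter some of these fits. The share of all genes called in each is not given, so the counts do not show whether the members alone gained or lost calls. Beyond that the cause was not tested.

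Without single libraries, proximal-like cells gave 1 to 31 nuclear members lower on day 7 and 1 to 71 higher on day 11, macrophage-like cells 0 to 3 (2 when scaled by nuclear genes only), endothelial-like cells 1 to 14, collecting duct principal-like cells 9 to 17 and 12 to 57, the tubular minus macrophage difference 42 to 66 and the thick limb minus proximal difference 11 to 64 for days 7 to 11. The count of 31 was without day-7 replicate 2.

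The log2 ratio of mt- mRNA to nuclear UMIs (SD between replicates 0.130) changed from control to day 7 by -0.21, against -0.35 with no mitochondrial limit, 0.15 at 25%, -0.39 with all barcodes, 0.46 in proximal-like cells and -1.74 with rRNAs and tRNAs added. From day 7 to day 11 it was 0.03, against 0.34 with all barcodes, -0.20 in proximal-like cells and 0.57 with rRNAs and tRNAs. From day 11 to day 14 it was 0.54, against 0.30 at 25%, 0.39 with all barcodes and 0.67 with rRNAs and tRNAs. Between day 14 and the control it was 0.36, against 0.71 in proximal-like cells and -0.50 with rRNAs and tRNAs. The rRNA to mt- mRNA ratio changed by 1.23 from day 7 to day 11 (0.60 to 1.87 without single libraries) and by 0.31 to day 14 (-0.33 to 0.95), and stood at -1.85 in proximal-like cells on day 14 against the control.

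With the replicate number as a block, 86 nuclear members, 10 mt- mRNAs and 2 rRNAs rose to day 11, and 10 and 4 were called on day 14, against 86, 11, 2, 10 and 3 in the same 6 libraries with no block. The numbers did not pair the libraries: deviations of same-numbered libraries correlated over 11097 genes by 0.214 (days 7 and 11), -0.024 (days 7 and 14) and -0.083 (days 11 and 14). The control has no number, so no blocked fit was made with it.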
